A study of Mus musculus with 15 samples.

Results

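The genes described here are a list of 57 enzymes that break down amino acids or run the urea cycle in liver. A gene was taken where the array's value table held a probe set annotated with its symbol alone, and the probe set with the highest mean over the 15 arrays stood for the gene. By this rule 51 of the 57 were measured, among 18820 genes in all, and Gstz1, Afmid, Ass1, Gls2, Sds and Sdsl were not analysed here. The cells were primary hepatocytes from livers of male C57BL/6J mice, each culture transduced with 1 of 5 adenoviruses. The control virus carried green fluorescent protein (GFP) alone, and the other viruses carried GFP together with human FXRα1, FXRα2, FXRα3 or FXRα4. All groups were therefore infected and GFP-expressing, all were kept without dexamethasone and insulin after transduction, and all were collected 36 h after it. The labels name no FXR agonist, so the groups compare cells carrying an introduced isoform with cells carrying GFP. Each group had 3 arrays. Whether these stand for different mice or culture wells is not in the labels, and a p-value here reflects no more than the spread among these arrays, which could be technical.

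Hepatocytes take up most of the amino acids that reach the liver and strip them of nitrogen, which the urea cycle turns into urea, while the carbon skeletons go to glucose, ketone bodies or the citric acid cycle. Each amino acid has its own chain of enzymes, and several of these genes are controlled by glucocorticoids, glucagon and insulin. FXR is a bile acid receptor that binds DNA as a partner of RXR. FXRα1 and FXRα3 carry a short MYTG insert beside the DNA-binding domain that FXRα2 and FXRα4 lack, and the N-terminus of FXRα3 and FXRα4 is extended.

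Promoter sequence is shown for 4 genes picked by hand. They are Hgd, Uroc1 and Nags, whose levels were highest with FXRα2, and Tat, which was lowest with FXRα4. The 250 bases before each RefSeq start site are given 5′ to 3′ on the gene's strand, build GRCm38.p6. Capitals mark TGACCT, the reverse complement of the nuclear receptor hexamer AGGTCA.
Hgd, chr16:37579903-37580152, plus strand: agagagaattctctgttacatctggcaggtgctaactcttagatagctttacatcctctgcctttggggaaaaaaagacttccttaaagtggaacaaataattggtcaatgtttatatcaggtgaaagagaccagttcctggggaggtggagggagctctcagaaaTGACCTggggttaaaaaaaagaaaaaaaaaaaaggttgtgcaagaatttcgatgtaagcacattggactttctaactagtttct
Uroc1, chr6:90333039-90333288, plus strand: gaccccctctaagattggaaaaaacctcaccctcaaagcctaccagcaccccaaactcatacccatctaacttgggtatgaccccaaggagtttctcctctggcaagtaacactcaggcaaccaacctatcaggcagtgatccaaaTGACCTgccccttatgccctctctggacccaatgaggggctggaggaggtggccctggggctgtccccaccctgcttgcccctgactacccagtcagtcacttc
Nags, chr11:102145263-102145512, plus strand: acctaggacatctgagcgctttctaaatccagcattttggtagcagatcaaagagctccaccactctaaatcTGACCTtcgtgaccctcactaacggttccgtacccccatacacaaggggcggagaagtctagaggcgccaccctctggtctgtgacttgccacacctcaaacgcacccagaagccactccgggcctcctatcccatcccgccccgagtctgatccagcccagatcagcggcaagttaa
Tat, chr8:109990186-109990435, plus strand: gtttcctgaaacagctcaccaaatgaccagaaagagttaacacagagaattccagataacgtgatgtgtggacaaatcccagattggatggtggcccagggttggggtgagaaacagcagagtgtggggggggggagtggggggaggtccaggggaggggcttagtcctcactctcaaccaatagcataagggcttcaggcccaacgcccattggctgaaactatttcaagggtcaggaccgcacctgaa
The hexamer lay 84 to 79 bases before the start in Hgd, 104 to 99 before it in Uroc1 and 178 to 173 before it in Nags. The Tat window held none of the motifs searched. These 4 windows do not stand for the list. Prodh and Gcdh, also at least 2-fold higher with FXRα2 than with GFP, had no AGGTCA in theirs. Among members with a promoter entry, 12 of 27 that rose with FXRα2, 1 of 4 that fell and 5 of 13 not called held it.

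All values are deposited log2 values, so a difference of 1 is 2-fold, and each gene is read against itself across arrays. The median of an array over all 35556 probe sets lay between 4.92 and 5.01. Over the 18820 genes analysed it differed by virus. It was 5.60 to 5.63 with GFP, 5.64 to 5.80 with FXRα1 and 5.79 to 5.91 with FXRα2. With FXRα3 it was 5.62 to 5.71, and with FXRα4 5.80 to 5.88. Arrays of 1 group correlated at 0.9969 to 0.9989, and no array had a member at least 2-fold from the mean of the other 2 arrays of its group. Of the hepatocyte markers, 8 of 8 were measured and their summed level lay between 14.69 and 14.93 in all arrays. It was 14.75 to 14.83 with GFP and 14.84 to 14.93 with FXRα3, while the other isoforms overlapped GFP. The summed level of 5 measured cholangiocyte markers of 6 listed was 9.76 to 9.91 with GFP, 10.93 to 11.01 with FXRα1, 10.52 to 10.83 with FXRα2, 11.29 to 11.45 with FXRα3 and 10.60 to 10.77 with FXRα4. Of 9 stellate cell markers, all measured, the summed level was 8.01 to 8.07 with GFP, 8.10 to 8.16 with FXRα2 and 8.18 to 8.37 with FXRα4, and that of 10 Kupffer cell markers, all measured, was 9.19 to 9.32 with GFP and 9.36 to 9.46 with FXRα2. Sums of 8 sinusoidal markers of 8 listed were 8.04 to 8.07 with GFP and 8.09 to 8.27 with FXRα1, and those of 6 lymphocyte and neutrophil markers of 7 listed were 6.39 to 6.44 with GFP and 6.26 to 6.35 with FXRα2. These are sums of linear values, so the brightest markers weigh most. Of the 5 cholangiocyte markers, 3 were higher and 0 lower (adjusted p under 0.05, limma) with FXRα1 and with FXRα3. With FXRα2 and with FXRα4, 2 were higher and 1 lower. Of the 8 hepatocyte markers, 0 were called with FXRα1. With FXRα2, FXRα3 and FXRα4, 3, 2 and 2 of them were called higher and 0 lower. Between FXRα2 and FXRα1, 4 hepatocyte markers were called higher and 0 lower. Of the Kupffer cell markers, 1 was called higher and 0 lower with FXRα2, and 4 of 10 lay above GFP. Of the stellate cell markers, 1 was called higher and 1 lower with FXRα4. The sums moved with the viruses, and their part in the results was not tested. In cultures measured in bulk, fewer cells of a type and less RNA per cell cannot be told apart.

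Against GFP, most of the amino acid enzymes that changed with FXRα2 were higher, and FXRα3 was the isoform with almost as many lower as higher. A gene is said to rise, fall or change where the adjusted p of the limma fit, Benjamini-Hochberg over all 18820 genes, was under 0.05. With FXRα1, 15 members rose and 4 fell, which is 37.3% of 51, while 12.4% of all genes were called, 8.42% higher and 4% lower. With FXRα2, 32 rose and 4 fell, which is 70.6% of the members, and 34.3% of all genes were called, 17.5% higher and 16.7% lower. With FXRα3, 13 rose and 12 fell, 49.0% of the members, and 14.1% of all genes were called, 7.45% higher and 6.62% lower. With FXRα4, 22 rose and 10 fell, 62.7% of the members, and 33.8% of all genes were called, 18% higher and 15.7% lower. The median log2 difference over the 51 members was 0.11 (FXRα1), 0.30 (FXRα2), 0.01 (FXRα3) and 0.13 (FXRα4), and that over all genes was 0.0035, -0.048, -0.0026 and -0.027 in the same order. A change of at least 2-fold was called for 1 member with FXRα1 (0.521% of all genes), 7 with FXRα2 (3.16%), 2 with FXRα3 (0.489%) and 3 with FXRα4 (3.03%). These 4 comparisons share the GFP arrays. The list was chosen with earlier results of these data known, so a share above that of all genes is not a test of the pathway. All genes also include dim ones, while 42.6% to 99.5% of genes were dimmer than a given member.

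The split into higher and lower members depended on how the arrays were scaled. Centring each array on its median over the 18820 genes, a choice made after seeing the data, moved every difference from GFP by -0.105, -0.221, -0.0387 and -0.212 in the order FXRα1 to FXRα4. The members then split into 7 higher and 6 lower with FXRα1, 21 and 10 with FXRα2, 8 and 14 with FXRα3, and 12 and 20 with FXRα4. Over all genes called, the share that was higher went from 67.8% to 32.7% with FXRα1, from 51.1% to 14.4% with FXRα2, from 53% to 39.9% with FXRα3 and from 53.4% to 16.3% with FXRα4. Rises of members against GFP that were called as deposited but not with this centring were, with FXRα1, those of Haao, Bckdhb, Cps1, Asl, Got1, Gcdh, Gldc and Gcsh (0.02 to 0.27). With FXRα2 they were those of Hpd, Fah, Ddc, Mat1a, Gnmt, Bckdha, Bckdhb, Cps1, Otc, Gpt2 and Agxt (0.03 to 0.23). With FXRα3 they were those of Ahcy, Cth, Bckdha, Bckdk and Got1 (0.10 to 0.19). With FXRα4 they were those of Haao, Bhmt2, Bckdha, Nags, Otc, Prodh2 and Aass (0.09 to 0.23), and Fah, Ftcd and Got1 were then below 0. Members not called as deposited but called lower with this centring were Mccc2 and Oat (FXRα1), Amdhd1, Kynu, Hibadh, Mccc1, Got2 and Oat (FXRα2), Mccc1 and Nags (FXRα3), and Hal, Acmsd, Bhmt, Cbs, Arg1, Gpt2, Got2, Aldh4a1, Oat and Amt (FXRα4), at -0.41 to -0.16.

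**Figure D1:**
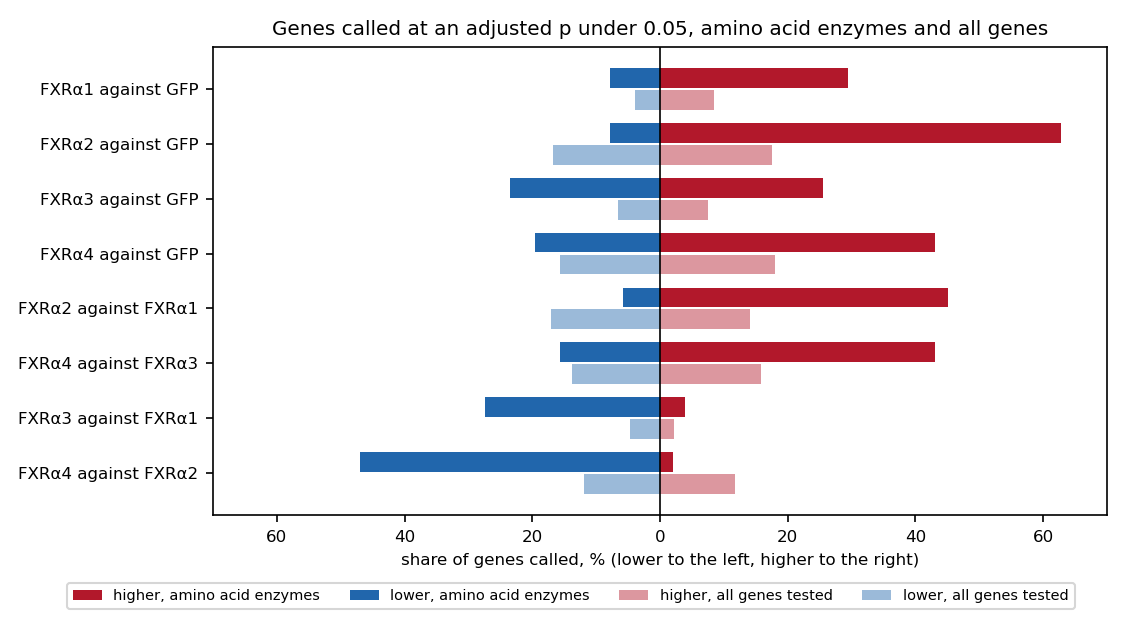
Share of the 51 amino acid enzymes (dark bars) and of all 18820 genes (pale bars) called at an adjusted p under 0.05, in percent, lower to the left and higher to the right, for each of 8 comparisons. With FXRα2 against GFP the higher members are 32 of 51, and with FXRα4 against FXRα2 the lower members are 24 of 51.

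**Figure D2:**
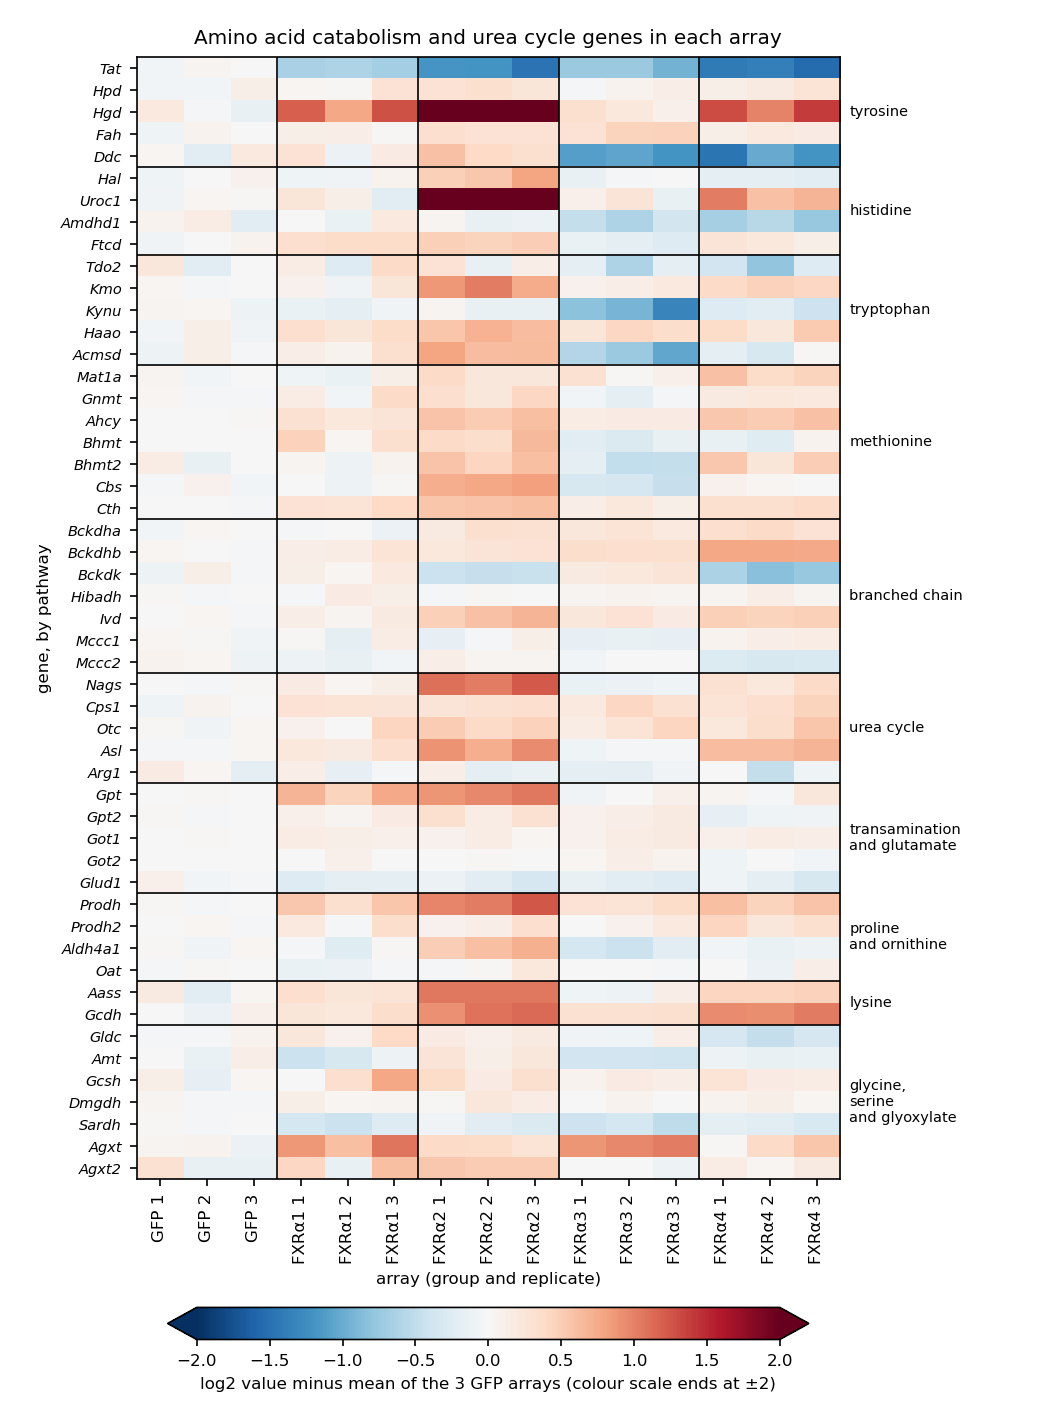
Log2 value of each of the 51 genes (rows, by pathway) in each of the 15 arrays (columns, by virus and replicate), minus the mean of the 3 GFP arrays, with red for higher and blue for lower and the scale ending at 2 either way. Hgd and Uroc1 are beyond the end of the scale in all 3 FXRα2 arrays, and Tat is blue in all 12 isoform arrays.

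Tyrosine breakdown held the largest rise and the largest fall against GFP of the 51 members. Hgd, homogentisate dioxygenase, the enzyme that opens the aromatic ring, read 5.59, 5.35 and 5.24 in the GFP arrays and 8.53, 8.53 and 8.48 in the FXRα2 arrays. With FXRα1 it read 6.58, 6.17 and 6.67, with FXRα3 5.71, 5.61 and 5.49, and with FXRα4 6.70, 6.38 and 6.79. The FXRα2 arrays were above every other array, those of FXRα1 and FXRα4 overlapped each other and were above GFP, and those of FXRα3 overlapped GFP. In limma, Hgd rose by 3.12 ± 0.13 (SE) on the log2 scale with FXRα2 (adjusted p = 2.09e-14), by 1.08 with FXRα1 (adjusted p = 1.91e-06) and by 1.23 with FXRα4 (adjusted p = 6.09e-08). The difference with FXRα3 was 0.21 ± 0.13, which did not pass (adjusted p = 0.367).

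Tat, tyrosine aminotransferase, the first and rate-setting step, went the other way in every isoform. Its values were 10.02, 10.14 and 10.07 with GFP, 9.43, 9.46 and 9.40 with FXRα1 and 9.33, 9.33 and 9.13 with FXRα3. They were 8.90, 8.89 and 8.60 with FXRα2 and 8.67, 8.70 and 8.53 with FXRα4. No isoform array reached the GFP arrays, and all arrays of the isoforms without the insert were below all arrays of those with it. Tat fell by 0.65, 1.28, 0.81 and 1.44 in the order FXRα1 to FXRα4 (SE 0.07 each), and the largest of the 4 adjusted p values in limma was 1.06e-06.

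Ddc, the decarboxylase that makes dopamine and serotonin from their precursors, separated the isoforms by N-terminus. It read 5.84, 5.57 and 5.99 with GFP, 6.09, 5.68 and 5.97 with FXRα1, and 6.39, 6.20 and 6.12 with FXRα2. It read 4.70, 4.75 and 4.61 with FXRα3 and 4.34, 4.80 and 4.61 with FXRα4. All arrays of the long isoforms were below all others. Ddc fell by 1.12 ± 0.13 with FXRα3 (adjusted p = 3.04e-06, limma) and by 1.22 ± 0.13 with FXRα4 (adjusted p = 1.76e-07). Its rise of 0.44 with FXRα2 (adjusted p = 0.0143, limma) did not pass without FXRα2 replicate 1 (0.36) or without GFP replicate 2 (0.32).

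Fah, fumarylacetoacetate hydrolase, the last step of the chain, rose by 0.30 with FXRα2 and 0.39 with FXRα3, the former being 0.08 and not passing with each array centred over genes. Its value of 0.16 with FXRα4 (adjusted p = 0.0268, limma) did not pass without GFP replicate 1 or 3 or FXRα4 replicate 2 or 3, where it lay between 0.12 and 0.17, and it was -0.05 with each array centred over genes. Hpd, hydroxyphenylpyruvate dioxygenase, was higher by 0.28 with FXRα2 (adjusted p = 0.0205, limma) and did not pass without FXRα2 replicate 2 (0.27), GFP replicate 1 (0.26) or GFP replicate 2 (0.25). Of the 5 measured genes of this pathway, 4 rose and 1 fell with FXRα2, and 1 rose and 2 fell with FXRα3. Of all genes, 17.5% rose and 16.7% fell with FXRα2, and 7.45% rose and 6.62% fell with FXRα3.

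**Figure D3:**
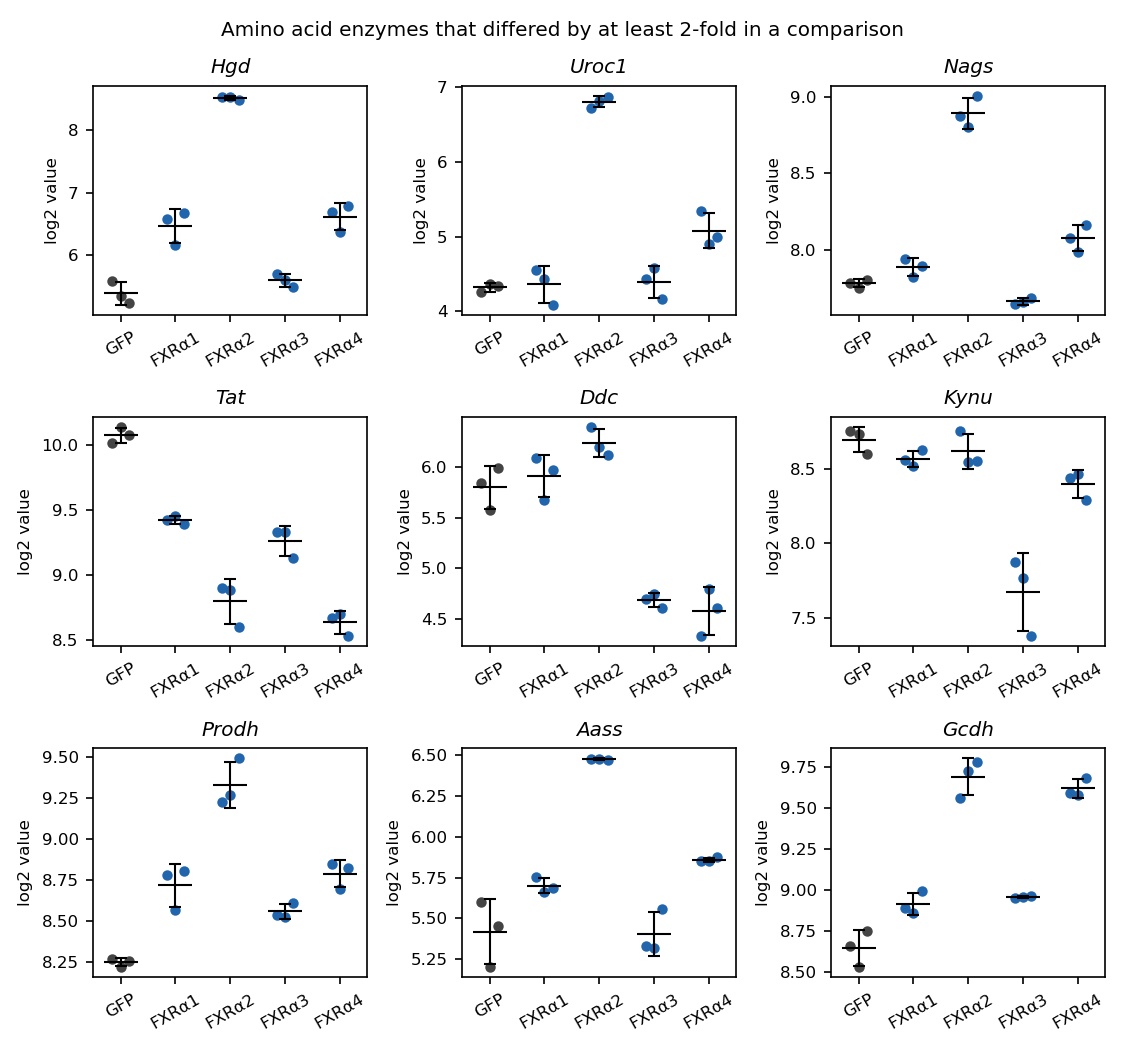
Log2 value in each array (points) of the 9 members that differed by at least 2-fold in a comparison, by virus, with the mean and SD of 3 arrays as bars. The value axis differs between panels and does not start at 0. FXRα2 has the highest arrays for Hgd, Uroc1, Nags, Prodh and Aass, and both long isoforms have the lowest for Ddc.

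Histidine breakdown differed most at urocanase. Uroc1, which encodes it and acts on the product of histidine ammonia lyase, read 4.25, 4.37 and 4.34 with GFP and 6.72, 6.82 and 6.86 with FXRα2. With FXRα4 it read 5.34, 4.90 and 4.99, with FXRα1 4.56, 4.44 and 4.09, and with FXRα3 4.43, 4.58 and 4.17. The FXRα2 arrays were highest, the FXRα4 arrays came next without overlap, and the isoforms with the insert overlapped GFP. The rise was 2.48 ± 0.14 with FXRα2 (adjusted p = 2.12e-12, limma) and 0.76 ± 0.14 with FXRα4 (adjusted p = 9.45e-05). Uroc1 read dim, with a mean over all arrays of 4.99 and 44.3% of genes dimmer. How well its probe set registers a change at the levels of GFP, FXRα1 and FXRα3 was not tested. The overlap of these groups does not show a lack of change, and the same limit holds where Uroc1 is compared between isoforms.

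Hal, histidine ammonia lyase, which starts the pathway, read 5.11, 5.20 and 5.28 with GFP and 5.67, 5.74 and 5.98 with FXRα2, a rise of 0.60 (adjusted p = 6.97e-05, limma). In the other isoforms its differences from GFP were -0.03, -0.06 and -0.20, and none passed. Amdhd1, imidazolonepropionase, the third step, fell by 0.49 with FXRα3 and 0.66 with FXRα4, and differed by 0.03 with FXRα1 and -0.07 with FXRα2. Ftcd, which passes the last fragment to folate, rose by 0.35 with FXRα1 and 0.47 with FXRα2. For Ftcd the FXRα3 value was -0.19 (adjusted p = 0.0187, limma), which did not pass without FXRα3 replicate 3 or GFP replicate 2 or 3 (-0.19 to -0.16). The FXRα4 value of Ftcd was 0.19 (adjusted p = 0.00727, limma), which did not pass without GFP replicate 1 (0.15) and was -0.02 with each array centred over genes. Hal and Amdhd1 are neighbours on chromosome 10 with 0 protein-coding genes between them in RefSeq, and with FXRα2 the first rose while the second had a value of -0.07.

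In tryptophan breakdown the isoforms split at kynureninase and at the decarboxylase that steers carbon away from NAD. Kynu, kynureninase, read 8.76, 8.73 and 8.60 with GFP, 8.56, 8.52 and 8.62 with FXRα1, and 8.76, 8.55 and 8.55 with FXRα2. It read 7.87, 7.77 and 7.38 with FXRα3 and 8.44, 8.47 and 8.29 with FXRα4. The FXRα3 arrays were below all others, and Kynu fell there by 1.02 ± 0.09 (adjusted p = 6.99e-08, limma). The FXRα4 value of -0.30 (adjusted p = 0.017, limma) did not pass without FXRα4 replicate 3 (-0.24), GFP replicate 1 (-0.27) or GFP replicate 2 (-0.28).

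Acmsd, aminocarboxymuconate semialdehyde decarboxylase, moved up with one isoform and down with another. Its values were 5.49, 5.70 and 5.56 with GFP, 6.38, 6.20 and 6.21 with FXRα2, and 4.99, 4.84 and 4.55 with FXRα3. The FXRα2 arrays lay above GFP and the FXRα3 arrays below it, with no overlap. Acmsd rose by 0.68 ± 0.12 with FXRα2 (adjusted p = 0.000117, limma) and fell by 0.79 with FXRα3 (adjusted p = 7.22e-05).

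Kmo, kynurenine monooxygenase, read 6.62, 6.55 and 6.60 with GFP and 7.45, 7.62 and 7.34 with FXRα2, a rise of 0.88 ± 0.09 (adjusted p = 5.25e-08, limma). It rose by 0.42 with FXRα4 (adjusted p = 0.000679) and had values of 0.08 and 0.14 with FXRα1 and FXRα3. Haao, hydroxyanthranilate dioxygenase, was called higher with each isoform, by 0.31, 0.62, 0.34 and 0.37 in the order FXRα1 to FXRα4. The FXRα1 and FXRα3 calls of Haao were lost without GFP replicate 1 or 3 and without 1 of 2 isoform arrays each (FXRα1 replicate 1 or 3, FXRα3 replicate 2 or 3), with values of 0.28 to 0.33. Tdo2, tryptophan dioxygenase, the glucocorticoid-controlled entry step, read 7.08, 6.65 and 6.85 with GFP and 6.48, 6.08 and 6.60 with FXRα4. Its value of -0.48 ± 0.16 with FXRα4 (adjusted p = 0.0267, limma) did not pass without FXRα4 replicate 2 (-0.32), GFP replicate 1 (-0.36) or GFP replicate 3 (-0.48). The array numbered 2 was the lowest of its group for Tdo2 in all 5 groups. Of the 5 tryptophan genes, 3 rose and 0 fell with FXRα2, and 1 rose and 2 fell with FXRα3. The shares of all genes were 17.5% and 16.7% with FXRα2, and 7.45% and 6.62% with FXRα3.

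In methionine metabolism all 7 measured genes were called higher with FXRα2, and 4 of 7 with FXRα4. Of all genes, 17.5% and 18% were called higher in these comparisons. With each array centred over genes, the FXRα2 calls of Mat1a and Gnmt and the FXRα4 call of Bhmt2 were lost. The FXRα2 call of Bhmt rests on 1 of its 2 probe sets, and the other gave 0.09 and was not called. Cbs, cystathionine beta-synthase, which commits homocysteine to cysteine synthesis, read 8.86, 8.97 and 8.84 with GFP, 9.61, 9.66 and 9.71 with FXRα2, and 8.57, 8.56 and 8.43 with FXRα3. The 3 groups did not overlap. Cbs rose by 0.77 ± 0.06 with FXRα2 (adjusted p = 4.28e-10, limma) and fell by 0.37 with FXRα3 (adjusted p = 7.81e-05). Its values of -0.03 with FXRα1 and 0.04 with FXRα4 did not pass, and the latter was -0.17 with each array centred over genes.

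Ahcy, which hydrolyses S-adenosylhomocysteine, read 11.20, 11.19 and 11.22 with GFP, 11.77, 11.71 and 11.81 with FXRα2, and 11.74, 11.71 and 11.80 with FXRα4. The FXRα2 and FXRα4 arrays overlapped each other and were above all others. Ahcy rose by 0.56 with FXRα2, 0.55 with FXRα4, 0.25 with FXRα1 and 0.16 with FXRα3 (SE 0.04 each). Cth, cystathionine gamma-lyase, the next step after Cbs, rose by 0.32, 0.58, 0.16 and 0.34 in the order FXRα1 to FXRα4, and its FXRα3 call was lost without FXRα3 replicate 2 (0.13).

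Mat1a, the liver's methionine adenosyltransferase, rose by 0.46 with FXRα4 (adjusted p = 5.11e-05, limma) and by 0.28 with FXRα2 (adjusted p = 0.00792), the latter not without FXRα2 replicate 1 (0.22). Bhmt2, which remethylates homocysteine, rose by 0.54 with FXRα2 and 0.42 with FXRα4. With FXRα3 Bhmt2 was lower by 0.38 (adjusted p = 0.022, limma), a call lost without FXRα3 replicate 2 or 3 or GFP replicate 1 or 3 (-0.38 to -0.31). Bhmt, the betaine-dependent enzyme beside it on chromosome 13, rose by 0.46 with FXRα2 on its brighter probe set (adjusted p = 0.00352, limma), and its dimmer probe set gave 0.09 and did not pass. Gnmt, glycine methyltransferase, was higher by 0.33 with FXRα2 (adjusted p = 0.0186, limma), a call lost without FXRα2 replicate 3 or GFP replicate 2 or 3 (0.28 to 0.32).

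Among the branched chain genes, the kinase and 1 subunit of the enzyme it inhibits moved in opposite directions with FXRα4. Bckdk, which phosphorylates and switches off the branched chain ketoacid dehydrogenase, read 8.33, 8.56 and 8.42 with GFP, 8.0, 7.98 and 7.99 with FXRα2, and 7.80, 7.60 and 7.67 with FXRα4. It read 8.55, 8.47 and 8.63 with FXRα1 and 8.62, 8.64 and 8.69 with FXRα3. The isoforms without the insert were below all other arrays. Bckdk fell by 0.44 ± 0.07 with FXRα2 (adjusted p = 1.68e-05, limma) and by 0.75 ± 0.07 with FXRα4 (adjusted p = 9.87e-09). Its FXRα3 value of 0.21 (adjusted p = 0.0373, limma) was lost without any 1 of the FXRα3 arrays and without GFP replicate 1 or 3 (0.16 to 0.23).

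Bckdhb, the beta subunit of the first component of that dehydrogenase, read 8.74, 8.70 and 8.66 with GFP and 9.47, 9.47 and 9.45 with FXRα4. With FXRα3 it read 9.04, 9.03 and 9.01, and with FXRα2 8.91, 8.95 and 8.99. The FXRα4 arrays were above all others, and the rise there was 0.77 ± 0.05 (adjusted p = 8.02e-11, limma). Bckdha, the alpha subunit, rose by 0.27 with FXRα2, 0.23 with FXRα3 and 0.33 with FXRα4, and none of these passed with each array centred over genes.

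Ivd, isovaleryl-CoA dehydrogenase of leucine breakdown, rose by 0.58 with FXRα2 (adjusted p = 2.1e-07, limma) and 0.46 with FXRα4 (adjusted p = 5e-06). Mccc2, a subunit of the carboxylase that follows it, fell by 0.29 with FXRα4 (adjusted p = 0.00227, limma), while Mccc1, the other subunit, had a value of 0.11 there. Hibadh, hydroxyisobutyrate dehydrogenase of valine breakdown, lay between -0.01 and 0.08 from GFP in the 4 isoforms and did not pass in any.

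In the urea cycle the activator-making enzyme and argininosuccinate lyase rose most with FXRα2. Nags, which makes N-acetylglutamate, the activator of carbamoyl phosphate synthetase, read 7.78, 7.75 and 7.80 with GFP and 8.88, 8.80 and 9.01 with FXRα2. It read 7.94, 7.82 and 7.90 with FXRα1, 7.64, 7.66 and 7.68 with FXRα3, and 8.08, 7.99 and 8.16 with FXRα4. The FXRα2 arrays were above all others and the FXRα3 arrays were below all others. Nags rose by 1.12 ± 0.07 with FXRα2 (adjusted p = 7.74e-12, limma) and by 0.30 with FXRα4 (adjusted p = 0.00101), which was 0.09 and did not pass with each array centred over genes.

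Asl, argininosuccinate lyase, read 9.12, 9.11 and 9.18 with GFP, 10.04, 9.87 and 10.08 with FXRα2, and 9.76, 9.76 and 9.82 with FXRα4. It read 9.35, 9.32 and 9.47 with FXRα1 and 9.05, 9.09 and 9.09 with FXRα3. FXRα2, FXRα4 and FXRα1 followed in that order without overlap, and all were above GFP. The rises were 0.86, 0.64 and 0.24 (SE 0.06 each), the last being 0.14 and not passing with each array centred over genes, and the FXRα3 value of -0.06 did not pass.

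Cps1, carbamoyl phosphate synthetase, the entry step, was called higher in all 4 isoforms, by 0.27, 0.30, 0.30 and 0.35 in the order FXRα1 to FXRα4 (SE 0.06 each). With each array centred over genes its FXRα1 value was 0.17 and its FXRα2 value 0.08, and these did not pass. Otc, ornithine transcarbamylase, rose by 0.45 with FXRα2 (adjusted p = 0.00521, limma), which was 0.23 and did not pass with each array centred over genes. With FXRα4 it was 0.38 (adjusted p = 0.018, limma), a call lost without FXRα4 replicate 3 (0.29) or GFP replicate 2 (0.34). Arg1, arginase, which releases urea, lay between -0.19 and -0.03 from GFP and did not pass in any isoform. Both Arg1 and Otc read dim, with means over all arrays of 4.94 and 4.80 and with 43.8% and 42.6% of genes dimmer. How well their probe sets register a change at such levels was not tested, so the Arg1 values do not show a lack of change.

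The aminotransferases that feed nitrogen into this cycle differed between the isoforms at Gpt. Gpt, alanine aminotransferase, read 6.93, 6.96 and 6.93 with GFP, 7.62, 7.39 and 7.69 with FXRα1, and 7.83, 7.91 and 7.99 with FXRα2. It read 6.86, 6.95 and 7.03 with FXRα3 and 6.99, 6.89 and 7.16 with FXRα4. The short isoforms were above GFP without overlap and the long isoforms overlapped GFP. Gpt rose by 0.63 ± 0.09 with FXRα1 (adjusted p = 2.13e-05, limma) and by 0.97 with FXRα2 (adjusted p = 8.12e-09).

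Gpt2, the mitochondrial alanine aminotransferase, rose by 0.26 with FXRα2, which was 0.04 and did not pass with each array centred over genes, and had values between -0.11 and 0.13 in the other isoforms, none of which passed. Got1, the cytosolic aspartate aminotransferase, was called higher with FXRα1, FXRα3 and FXRα4, by 0.12 to 0.14. The FXRα1 call of Got1 was lost without any 1 GFP array or without FXRα1 replicate 1 or 3 (0.11 to 0.13), the FXRα3 call without FXRα3 replicate 3 (0.12), and the FXRα4 value was -0.09 with each array centred over genes. Got2, the mitochondrial form, lay between -0.05 and 0.08 on its brightest probe set and passed with no isoform. Of its other 2 probe sets, the dimmest gave 0.40 with FXRα4 and the other -0.04. Glud1, glutamate dehydrogenase, which frees ammonium in mitochondria, was lower by 0.20 to 0.23 in all 4 isoforms, and the FXRα1, FXRα3 and FXRα4 calls were lost without GFP replicate 1 (-0.16, -0.16 and -0.15). They were also lost without FXRα1 replicate 1 (-0.18), FXRα3 replicate 2 or 3 (-0.20 and -0.19) and FXRα4 replicate 3 (-0.14).

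With FXRα2, 2 of 4 genes of proline and ornithine metabolism and 2 of 2 lysine genes rose, beside 17.5% of all genes. Prodh, proline dehydrogenase, read 8.27, 8.22 and 8.26 with GFP, 9.23, 9.27 and 9.49 with FXRα2, and 8.84, 8.70 and 8.82 with FXRα4. It read 8.78, 8.56 and 8.80 with FXRα1 and 8.54, 8.53 and 8.61 with FXRα3. Every isoform array was above every GFP array, and the FXRα2 arrays were highest. Prodh rose by 1.08 ± 0.07 with FXRα2 (adjusted p = 5.92e-11, limma), by 0.47 with FXRα1, by 0.31 with FXRα3 and by 0.54 with FXRα4.

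Aldh4a1, the dehydrogenase that follows Prodh, rose by 0.60 with FXRα2 (adjusted p = 2.93e-05, limma). Its FXRα3 value of -0.33 (adjusted p = 0.0211, limma) was lost without FXRα3 replicate 1 or 2 or GFP replicate 1 or 3 (-0.33 to -0.29). Prodh2, which oxidises hydroxyproline, was higher with FXRα4 by 0.33 (adjusted p = 0.0216, limma), a call lost without FXRα4 replicate 1 or GFP replicate 1 or 3 (0.28 to 0.32). Oat, ornithine aminotransferase, lay between -0.10 and 0.07 from GFP and did not pass.

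Aass, the bifunctional enzyme that starts lysine breakdown, read 5.60, 5.20 and 5.45 with GFP and 6.48, 6.48 and 6.47 with FXRα2, a rise of 1.05 ± 0.11 (adjusted p = 3.51e-08, limma). With FXRα4 it rose by 0.44 (adjusted p = 0.00202, limma), which was 0.23 and did not pass with each array centred over genes. Gcdh, glutaryl-CoA dehydrogenase, further down the same pathway, read 8.66, 8.53 and 8.75 with GFP, 9.56, 9.73 and 9.78 with FXRα2, and 9.59, 9.58 and 9.69 with FXRα4. The FXRα2 and FXRα4 arrays overlapped each other and were above all others. Gcdh rose by 1.05 ± 0.06 with FXRα2 (adjusted p = 1.17e-11, limma) and by 0.98 with FXRα4 (adjusted p = 4.7e-11). It rose by 0.27 with FXRα1 and 0.31 with FXRα3, the former not without GFP replicate 2 (0.21).

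Among the glycine, serine and glyoxylate enzymes, Agxt differed most from GFP. Agxt, the peroxisomal aminotransferase that detoxifies glyoxylate, read 5.59, 5.61 and 5.43 with GFP, 6.42, 6.15 and 6.62 with FXRα1, and 6.42, 6.50 and 6.57 with FXRα3. It read 5.93, 5.91 and 5.82 with FXRα2 and 5.57, 5.93 and 6.10 with FXRα4. The FXRα1 and FXRα3 arrays were above all others. Agxt rose by 0.85 ± 0.13 with FXRα1 (adjusted p = 4.28e-05, limma) and by 0.95 with FXRα3 (adjusted p = 1.1e-05). Its FXRα2 value of 0.34 (adjusted p = 0.041, limma) was lost without any 1 GFP array, without FXRα2 replicate 1 or 2 and without FXRα3 replicate 2 (0.28 to 0.38).

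Sardh, sarcosine dehydrogenase, fell in all 4 isoforms, by 0.34, 0.19, 0.43 and 0.23 in the order FXRα1 to FXRα4. The FXRα2 call of Sardh was lost without FXRα2 replicate 2 or 3 or GFP replicate 1 or 3 (-0.19 to -0.15), and the FXRα4 call without FXRα4 replicate 3 (-0.20). Gldc, the decarboxylase of the glycine cleavage system, fell by 0.38 with FXRα4 (adjusted p = 0.000189, limma). Its FXRα1 value of 0.23 (adjusted p = 0.0344, limma) was lost without FXRα1 replicate 1 or 3 or GFP replicate 1 or 2 (0.15 to 0.24). Amt, its aminomethyltransferase, fell by 0.38 with FXRα3 (adjusted p = 0.0022, limma). The FXRα1 value of Amt was -0.29 (adjusted p = 0.023, limma), with arrays that overlapped GFP, and was lost without FXRα1 replicate 1 or 2 or GFP replicate 1 or 3 (-0.28 to -0.21). Gcsh, the carrier protein of the same system, read 7.49, 7.82 and 8.25 with FXRα1 and 7.60, 7.31 and 7.52 with GFP, which overlapped. Its FXRα1 value of 0.37 (adjusted p = 0.0498, limma) passed with 1 array left out only where that was FXRα1 replicate 1, FXRα2 replicate 3 or GFP replicate 1, and it was 0.18 without FXRα1 replicate 3. Agxt2, a mitochondrial aminotransferase, rose by 0.51 with FXRα2 (adjusted p = 0.00693, limma). Dmgdh, dimethylglycine dehydrogenase, lay between 0.03 and 0.13 from GFP and did not pass.

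The isoforms were also compared with each other. The GFP means do not enter these differences, but the GFP arrays still count in the spread of the fit behind the p values. On both N-termini, more members were higher than lower in the isoforms without the insert. FXRα2 against FXRα1 gave 23 higher and 3 lower, 51.0% of the members, and 31.3% of all genes were called, 14.1% higher and 17.1% lower. FXRα4 against FXRα3 gave 22 higher and 8 lower, 58.8% of the members, and 29.5% of all genes were called, 15.8% higher and 13.8% lower. At least 2-fold, the members called were Hgd, Uroc1 and Nags for FXRα2 against FXRα1 (2.31% of all genes) and Hgd for FXRα4 against FXRα3 (2.02%). With each array centred over genes, which moved the differences by -0.117 and -0.173, the splits were 19 and 6, and 13 and 11.

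The groups of these 2 comparisons share no array, though both draw on the spread of the same fit. How many of all genes were called in both is not given here, so the overlap is not read as particular to these enzymes. Of the members that rose, 16 rose in both, which is 69.6% of the 23 and 72.7% of the 22: Aass, Acmsd, Ahcy, Amt, Asl, Bhmt2, Cbs, Cth, Gcdh, Hgd, Ivd, Kmo, Mat1a, Nags, Prodh and Uroc1. Among these, 3 calls between FXRα4 and FXRα3 were lost with 1 array of those groups left out. They were Amt (any FXRα3 array, FXRα4 replicate 1 or 3, 0.24 to 0.26), Kmo (FXRα3 replicate 1 or 2, FXRα4 replicate 2, 0.26 to 0.29) and Prodh (FXRα3 replicate 1 or 2, FXRα4 replicate 1 or 3, 0.20 to 0.22). With each array centred over genes, the FXRα4 against FXRα3 differences of Amt, Cth, Ivd, Kmo, Mat1a and Prodh (0.01 to 0.15) and the FXRα2 against FXRα1 difference of Mat1a (0.19) did not pass. Those that fell in both were Agxt, Bckdk and Tat, all of the 3 and 37.5% of the 8. Tat had the same difference on both N-termini, -0.63 ± 0.07, and Asl had 0.62 and 0.70. Fah and Gpt2 were called in opposite directions, higher with FXRα2 than FXRα1 (0.21 and 0.16) and lower with FXRα4 than FXRα3 (-0.23 and -0.24). The Gpt2 call between the short isoforms was lost without FXRα1 replicate 2 or FXRα2 replicate 1 or 3 (0.13 to 0.14). Centred over genes, the Fah and Gpt2 differences between the short isoforms were 0.10 and 0.04 and did not pass.

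The difference between the 2 insert effects was tested as an interaction, the long-isoform effect minus the short-isoform effect. It was called for 15 members, 3 higher and 12 lower, 29.4%, and 12.9% of all genes were called, 7.24% higher and 5.63% lower. In 2 members, Uroc1 and Hgd, it was at least 2-fold (0.797% of all genes). Uroc1 was higher by 2.44 without the insert on the short N-terminus and by 0.69 on the long one, an interaction of -1.75 ± 0.19 (adjusted p = 2.25e-06, limma). Hgd was higher by 2.04 and by 1.02, an interaction of -1.02 ± 0.18 (adjusted p = 0.000451). Nags was higher by 1.01 and by 0.41, an interaction of -0.60 ± 0.09 (adjusted p = 0.00015). Kynu went the other way, with 0.05 on the short N-terminus and 0.73 on the long one, an interaction of 0.67 ± 0.13 (adjusted p = 0.00143).

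**Figure D4:**
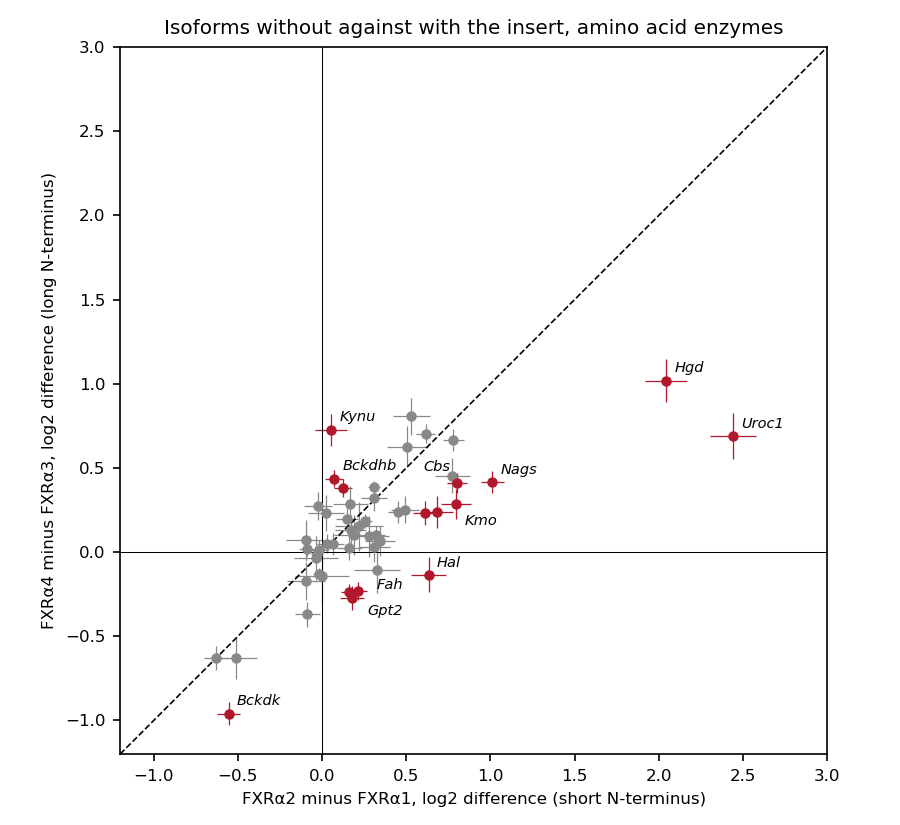
Log2 difference of each of the 51 members between the isoforms without and with the insert, on the short N-terminus (FXRα2 minus FXRα1, horizontal) and the long one (FXRα4 minus FXRα3, vertical), with SE bars. Red points have an interaction with an adjusted p under 0.05 and the dashed line marks equal differences. Uroc1 and Hgd lie far to the right below the line, and Kynu and Bckdhb lie above it.

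More members were lower than higher in the isoforms with the long N-terminus. FXRα3 against FXRα1 gave 2 higher and 14 lower, 31.4% of the members, and 6.86% of all genes were called, 2.21% higher and 4.65% lower. FXRα4 against FXRα2 gave 1 higher and 24 lower, 49.0% of the members, and 23.7% of all genes were called, 11.7% higher and 12% lower. At least 2-fold lower were Ddc for FXRα3 against FXRα1 (0.101% of all genes) and Hgd, Ddc and Uroc1 for FXRα4 against FXRα2 (1.07%). Centring each array over genes moved the differences by 0.0658 and 0.00937, and the splits were 3 and 10, and 1 and 25. The member that was higher with FXRα4 than with FXRα2 was Bckdhb, by 0.52 (adjusted p = 1.21e-07, limma), and Fah and Bckdha were higher with FXRα3 than with FXRα1, by 0.31 and 0.28.

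Ddc was lower by 1.22 with FXRα3 than FXRα1 (adjusted p = 2.91e-06, limma) and by 1.66 with FXRα4 than FXRα2 (adjusted p = 6.05e-09). Hgd differed by -0.87 and -1.89 in these comparisons, Gpt by -0.62 and -0.89, Acmsd by -0.97 and -0.84, and Ftcd by -0.54 and -0.28, and all of these passed. Uroc1 differed by 0.03 with FXRα3 and by -1.72 with FXRα4 (adjusted p = 3.59e-09, limma). Beside 12% of all genes, 4 of 4 histidine genes were lower with FXRα4 than with FXRα2, and 4 of 5 tryptophan genes. Of the latter, Tdo2 (-0.57) was not called without FXRα2 replicate 1 (-0.47) or FXRα4 replicate 2 (-0.41). Haao (-0.26, adjusted p = 0.0497 in limma) passed with 1 array left out only where that was FXRα1 replicate 2 or 3 or FXRα4 replicate 3.

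A second list held 80 other genes of the same pathways and their side branches, of which 69 were measured. Against GFP, 15 rose and 4 fell with FXRα1, 32 and 10 with FXRα2, 11 and 11 with FXRα3, and 19 and 10 with FXRα4. In that order 27.5, 60.9, 31.9 and 42% of the list were called, beside 12.4, 34.3, 14.1 and 33.8% of all genes. The counts and values of this list, the transporters and the transcription factors are as deposited. Those with each array centred over genes, which moved the split of the members, are not given here. Suox, sulfite oxidase, the last step of sulfur amino acid oxidation, rose by 2.14 ± 0.07 with FXRα2 (adjusted p = 2.73e-16, limma), by 0.97 with FXRα4 and by 0.67 with FXRα1. Pipox, pipecolate oxidase of lysine breakdown, rose by 1.25 with FXRα2. Asns, asparagine synthetase, which uses nitrogen for synthesis, fell by 0.68 with FXRα2 and 0.63 with FXRα4. Kyat1, a kynurenine aminotransferase, fell by 0.64 with FXRα1 and 0.82 with FXRα3 and was 1.25 higher with FXRα2 than with FXRα1. Glyat, which conjugates glycine, fell by 1.24 with FXRα4.

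Of 17 amino acid transporters, all measured, 4 rose and 1 fell with FXRα1, 5 and 6 with FXRα2, 6 and 3 with FXRα3, and 7 and 7 with FXRα4, which is 29.4, 64.7, 52.9 and 82.4% of the list. Of all genes, 12.4, 34.3, 14.1 and 33.8% were called in that order. Slc6a13, a carrier of GABA and taurine, rose by 1.74 ± 0.08 with FXRα2 (adjusted p = 5.99e-14, limma) and by 0.44 with FXRα1. Slc1a5, a carrier of glutamine and other neutral amino acids, rose by 0.57, 1.11, 1.11 and 1.21 in the order FXRα1 to FXRα4. Slc38a3, a glutamine carrier of hepatocytes, rose by 0.76 with FXRα2 (adjusted p = 2.04e-12, limma), and its interaction was -0.66. Slc16a10, an aromatic amino acid transporter, fell by 1.12 with FXRα4 and 0.50 with FXRα2.

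Of 16 transcription factors and hormone receptors known to act on these genes in liver, 15 were measured, and 5 rose and 2 fell with FXRα1, 8 and 1 with FXRα2, 2 and 3 with FXRα3, and 8 and 1 with FXRα4, which is 46.7, 60, 33.3 and 60% of those measured. The shares of all genes called were 12.4, 34.3, 14.1 and 33.8%. Creb3l3, a fasting-responsive membrane-bound factor, rose by 2.96 ± 0.07 with FXRα2 (adjusted p = 2.39e-18, limma), 2.06 with FXRα4 and 0.64 with FXRα1. Hnf4a, a central factor of hepatocyte genes, rose by 1.09, 1.54, 0.67 and 0.86 in the order FXRα1 to FXRα4. Foxa1, a pioneer factor of liver, rose by 0.59 with FXRα1, 1.49 with FXRα2 and 0.63 with FXRα4. Cebpa, which activates many amino acid enzymes, rose by 0.79 with FXRα2 and fell by 0.71 with FXRα3. Nr3c1, the glucocorticoid receptor, fell by 0.39 with FXRα3 (adjusted p = 7.28e-05, limma).

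The set of RefSeq promoters used here held entries for 44 of the 51 members. It had none for Kynu, Mat1a, Arg1, Cps1, Asl, Cth and Gpt, which were not searched. The hexamer AGGTCA, searched on both strands in the 250 bases before the start, lay in 18 of these 44 members, and in 38.3% of their 47 windows, where 14.0% of all 32851 windows held it. The related hexamer AGTTCA lay in 10 members, and in 11.8% of all windows. Arrangements that hold these hexamers in pairs, AGGTCANTGACCT, TGAACTNNAGTTCA, TGACCTNNAGGTCA and AGGTCANAGGTCA, were in 0 members, and in 0.00609%, 0.00304%, 0.0122% and 0.0335% of all windows. CAAAGTCCA, a motif of HNF4A, was in the Agxt2 promoter alone and in 0.384% of all windows, and TTGCGCAA, a motif of C/EBP factors, was in 0 members and 0.164% of all windows. Among members with a promoter entry, AGGTCA lay in 12 of the 27 that rose with FXRα2, in 1 of the 4 that fell and in 5 of the 13 that were not called. These matches describe the letters in the windows, and no binding was measured.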

How the data were processed

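The deposited table held 1 value per probe set and array for 35556 probe sets on 15 Affymetrix mouse arrays. The authors' values are on a log2 scale (1.93 to 13.84), a base inferred here from their range. Expression Console 1.1 and PLIER appear among tools in the submitters' processing notes, with no role stated. How background was corrected and arrays normalized is not given in the sources used here, and no scanner files were used, so alternatives for them were not run. Annotation gave 21218 probe sets 1 symbol, 1881 several and 12457 none.

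A model with 5 group means was fitted to 18820 genes and 15 arrays in limma 3.58.1 (R 4.3.3), with eBayes variances trended on mean level, 9 contrasts, two-sided tests and Benjamini-Hochberg adjustment within each. Dim genes were kept. The number of arrays limits the precision. The fit was tested on simulated data. Members and lists were chosen with earlier results of these data known. Genes outside the list could be named only where they had 1 of the 4 smallest p values of their list in a comparison, and not all of these are named; values given for all members follow the pathways. Alternatives were no trend, array weights, only the groups compared, a filter on dim genes, other scalings, an offset of 16 on linear values, other probe sets, the replicate number as a block, and each array left out. Promoters came from RefSeq (GRCm38.p6). Figures were drawn with matplotlib 3.10.9 in Python 3.11.15.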

Additional observations from a re-analysis of the deposited data

Results flagged for a closer look

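For 15 members the effect of removing the insert differed between the short and the long N-terminus, tested as the interaction in limma with adjustment over all 18820 genes. The difference was -1.75 for Uroc1, -1.02 for Hgd, -0.77 for Hal, -0.60 for Nags, -0.51 for Kmo, -0.45 for Mccc2, -0.44 for Fah and -0.44 for Aldh4a1. It was -0.41 for Bckdk, -0.40 for Gpt2, -0.39 for Cbs and -0.38 for Prodh. It was above 0 for Kynu (0.67), Bckdhb (0.36) and Ftcd (0.26). The adjusted p ranged from 2.25e-06 for Uroc1 to 0.034 for Aldh4a1 in limma. Of 25 alternative settings, the Ftcd call was kept in 15 and that of Aldh4a1 in 16, and not every loss is listed here. The Ftcd difference did not pass without FXRα2 replicate 1 or 2, FXRα3 replicate 2 or 3, or FXRα4 replicate 1 or 2 (0.23 to 0.26), or with each array centred over genes (0.20). That of Aldh4a1 did not pass without FXRα1 replicate 2, FXRα2 replicate 2 or 3, FXRα3 replicate 1 or 3, or FXRα4 replicate 2 or 3 (-0.45 to -0.37).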

How the results depend on the processing

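In all 9 comparisons the number of members called stayed within 1.5 times its value under every alternative run. With 1 array left out it was 14 to 19 (FXRα1), 32 to 38 (FXRα2), 18 to 26 (FXRα3) and 26 to 33 (FXRα4) against GFP, 25 to 29 for FXRα2 against FXRα1, 25 to 31 for FXRα4 against FXRα3, 12 to 21 for FXRα3 against FXRα1, 23 to 26 for FXRα4 against FXRα2 and 13 to 16 for the interaction. Of 224 calls, 154 kept their direction and side of the threshold in all 25 settings, which leave out the other probe sets. Bhmt kept its calls for FXRα2 against GFP and FXRα4 against FXRα2, but its other probe set gave none (0.09 and 0.02). Losses named by gene are mostly those with 1 array left out or each array centred over genes. Those in other settings are not listed, such as 19 without the mean-variance trend and 13 with only the groups compared. Among values called in either scaling, the sign changed with each array centred over genes for Cbs (-0.17), Fah (-0.0497), Ftcd (-0.020), Got1 (-0.0858) and Oat (-0.20) with FXRα4, and for Got2 (-0.21) and Oat (-0.16) with FXRα2. The dimmest of 3 probe sets of Got2 gave 0.40 for FXRα4 against GFP and 0.43 against FXRα2, and the remaining one -0.04 and -0.05. The cause was not tested. The replicate number as a block gave 19, 39, 27 and 33 calls against GFP for FXRα1 to FXRα4, and 28, 31, 17, 30 and 17 in the other comparisons. The deviations of arrays with the same number correlated at -0.21 to 0.43, over 0.1 in 18 of 30 pairs, and 11 of 15 arrays correlated best with their own number, a hint from the data that the labels do not bear on.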
